A study of Homo sapiens with 12 samples.

Results

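PGR, ESR1, NR3C1 and NR3C2 encode the progesterone receptor, estrogen receptor alpha, the glucocorticoid receptor and the mineralocorticoid receptor. They were chosen by name as steroid hormone receptor genes, with earlier results of these data known. They are 4 of the 55765 genes in the count tables. All 4 passed the filter on low counts, which kept 17727 genes. The study's question was how far genes depend on PRMT1, an enzyme that methylates arginines in proteins, for their response to progestin in T47D, an established luminal breast cancer line. Cells transfected with a nonspecific control siRNA (siCT) or with an siRNA against PRMT1 (siPRMT1) received 10 nM R5020, a synthetic progestin, or an equal volume of its solvent ethanol for 6 h. The 4 groups were siCT ethanol, siCT R5020, siPRMT1 ethanol and siPRMT1 R5020, with 3 biological replicates each, and messenger RNA was sequenced. The sample titles mark the ethanol groups as time 0, while the treatment labels give 6 h of ethanol. All groups share the cell line, the transfection and growth in a medium with fetal bovine serum and insulin. Whether steroids were removed from the serum is not given in the sources used here. Any siRNA leaves part of its target in place, and 1 cell line stands for 1 tumour.

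Steroid receptors are transcription factors that chaperones of the HSP90 machinery hold ready for a ligand. Once bound, they dimerize on DNA and recruit coactivators or corepressors. The progesterone, glucocorticoid and mineralocorticoid receptors read the same kind of DNA element, whereas estrogen receptors read another. In breast epithelium PGR is a classical target gene of estrogen receptor alpha, pioneer factors such as FOXA1 and GATA3 open chromatin for these receptors, and a receptor's own ligand often changes the amount of receptor mRNA.

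The promoters of the 4 genes are shown because 3 of the genes changed in the same directions in these data. Any part of the promoters in this was not tested. RefSeq lists 3 promoter windows for PGR on chromosome 11, 6 for ESR1 on chromosome 6, 7 for NR3C1 on chromosome 5 and 4 for NR3C2 on chromosome 4. Each window runs from 250 bases before a transcript's start to 50 bases after it, in build GRCh38.p14, read 5′ to 3′ on the gene's strand. ESR1 lies on the plus strand and the other genes on the minus strand. The window with the most CpG dinucleotides of each gene is printed, and capitals mark GC boxes (GGGCGG, on either strand), which bind Sp family factors, with overlapping matches run together. PGR chr11:101129014-101129313, ESR1 chr6:151807432-151807731, NR3C1 chr5:143403637-143403936 and NR3C2 chr4:148445273-148445572 read as follows.
PGR: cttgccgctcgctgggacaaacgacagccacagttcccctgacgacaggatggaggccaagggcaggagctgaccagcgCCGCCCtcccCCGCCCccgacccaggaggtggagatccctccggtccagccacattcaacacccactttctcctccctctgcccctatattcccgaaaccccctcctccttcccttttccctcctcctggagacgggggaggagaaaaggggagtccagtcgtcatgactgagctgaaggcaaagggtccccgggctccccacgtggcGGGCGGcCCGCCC
ESR1: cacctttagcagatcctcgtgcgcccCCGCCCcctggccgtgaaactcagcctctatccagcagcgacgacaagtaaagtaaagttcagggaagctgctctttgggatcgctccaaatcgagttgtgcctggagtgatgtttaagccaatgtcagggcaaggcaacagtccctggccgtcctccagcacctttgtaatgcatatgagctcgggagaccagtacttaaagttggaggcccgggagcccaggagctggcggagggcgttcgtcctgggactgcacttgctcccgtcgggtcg
NR3C1: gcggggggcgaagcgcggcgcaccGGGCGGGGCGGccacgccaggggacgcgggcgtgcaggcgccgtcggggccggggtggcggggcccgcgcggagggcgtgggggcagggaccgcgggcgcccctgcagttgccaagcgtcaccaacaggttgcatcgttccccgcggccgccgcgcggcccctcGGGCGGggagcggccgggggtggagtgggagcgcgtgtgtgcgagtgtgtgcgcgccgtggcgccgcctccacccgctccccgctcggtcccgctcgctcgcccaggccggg
NR3C2: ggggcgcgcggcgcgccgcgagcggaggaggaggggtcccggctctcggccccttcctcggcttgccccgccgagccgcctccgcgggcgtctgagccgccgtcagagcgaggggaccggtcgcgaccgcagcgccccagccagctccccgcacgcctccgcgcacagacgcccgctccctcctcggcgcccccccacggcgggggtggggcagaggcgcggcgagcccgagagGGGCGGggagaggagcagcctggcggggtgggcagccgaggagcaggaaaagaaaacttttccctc

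These windows held 17 CpG dinucleotides for PGR, 17 for ESR1, 51 for NR3C1 and 42 for NR3C2. Chosen for their CpG number, they had GC contents of 66%, 58.3%, 82.3% and 78%. Over all windows of each gene the GC content began at 44.3% for PGR, 36.3% for ESR1, 34.7% for NR3C1 and 65.7% for NR3C2, and the median of all 35116 RefSeq promoter windows was 58.7%. A GC box was found in all 3 PGR windows, 2 of 6 ESR1 windows, 5 of 7 NR3C1 windows and all 4 NR3C2 windows, and in 45% of all windows. However, 2 of the PGR windows cover almost the same bases, and so do 2 of the NR3C2 windows, so shared GC boxes are counted again. The element read by the progesterone, glucocorticoid and mineralocorticoid receptors was searched as GNACA and TGTNC with 3 bases between them, and the estrogen response element as GGTCA and TGACC with 3 bases between them, on both strands. Neither was found in any window of the 4 genes, and they occurred in 0.39% and 0.057% of all windows. The AP-1 site TGANTCA was found in 1 NR3C1 window and in 7.71% of all windows, and TATAAA in 1 other NR3C1 window and in 11.5% of all windows. In the printed PGR window, 2 GC boxes began 37 and 44 bases after the start of the transcript. That start lies downstream of the one in the first PGR window, chr11:101129764-101130063. A match or its lack describes only the letters in these 300 bases, and binding was not measured.

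Total counts per library ran from 26783525 to 34120937. PRMT1 stood at 29.7 to 50.7 CPM (read counts relative to the library total, scaled by the TMM method) in the 6 siCT libraries and at 6.89 to 8.38 CPM in the 6 siPRMT1 libraries. Luminal markers were high in every library, and basal markers summed to 1.37 to 3.81 CPM. The leukocyte and endothelial genes PTPRC, CD68, CD14 and CDH5 averaged at most 0.237 CPM in a group. COL1A1, a fibroblast collagen, was present at 31.7 to 50.3 CPM by group mean. Other stromal genes of the same list were low. COL1A2, COL3A1 and PDGFRB averaged at most 0.140 CPM in a group and LUM at most 3.53 CPM. A pair of siCT libraries stood apart, replicate 3 of siCT ethanol with 59.3% of its counts from mitochondrially encoded genes and replicate 1 of siCT R5020 with 52.4%, where the other 10 libraries ran from 31.3% to 38.3%. Receptor results are therefore given with and without this pair where the call or the size differs.

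PGR was the most abundant receptor mRNA, and it fell with R5020 and rose with siPRMT1. Its levels in replicates 1, 2 and 3 were 488, 655 and 407 CPM in siCT ethanol and 134, 183 and 191 CPM in siCT R5020. They were 1106, 1134 and 1147 CPM in siPRMT1 ethanol and 278, 282 and 265 CPM in siPRMT1 R5020. No library of one group overlapped with another group, so the order from high to low was siPRMT1 ethanol, siCT ethanol, siPRMT1 R5020, siCT R5020. How many of all genes separate in this way was not counted. The group means were 517 ± 127, 169 ± 30.7, 1129 ± 20.7 and 275 ± 8.69 CPM in siCT ethanol, siCT R5020, siPRMT1 ethanol and siPRMT1 R5020 (SD, n = 3). The level that siPRMT1 cells kept under R5020 thus lay below that of untreated siCT cells.

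R5020 lowered PGR 3.06-fold in siCT cells, a log2 change of -1.61 ± 0.20 (SE). The p-value from the quasi-likelihood test of edgeR, adjusted over all genes after Benjamini and Hochberg, was 9.95e-05. In siPRMT1 cells it lowered PGR 4.10-fold (log2 -2.04 ± 0.20, adjusted p = 1.23e-05). In absolute terms PGR fell by 348 CPM with siCT and fell by 854 CPM with siPRMT1. siPRMT1 raised PGR 2.18-fold in ethanol (log2 1.13 ± 0.20, adjusted p = 0.00147) and 1.63-fold in R5020 (log2 0.70 ± 0.20, adjusted p = 0.0212). The pair that stood apart held the lowest PGR level of its group both times, and its part in the result was measured by leaving it out. Without the pair the rise in R5020 was 0.57 on the log2 scale (adjusted p = 0.00188). The rise in R5020 missed the threshold without siCT R5020 replicate 1 (log2 0.56, adjusted p = 0.0765), and without siPRMT1 R5020 replicate 1, 2 or 3 (adjusted p = 0.0632, 0.0737 and 0.0581). Counts per gene do not separate the long and short receptor forms, PR-B and PR-A, which one gene encodes.

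ESR1, whose protein drives the estrogen response of luminal cells, followed the same order at a lower level. It stood at 72.7, 85.2 and 75.6 CPM in siCT ethanol and at 45.3, 43.9 and 49.5 CPM in siCT R5020. After siPRMT1 its levels were 179, 172 and 176 CPM for ethanol, then 66.3, 67.6 and 65.2 CPM for R5020. Here too no 2 groups overlapped. The closest neighbours were siCT ethanol at 77.8 ± 6.55 CPM and siPRMT1 R5020 at 66.4 ± 1.18 CPM (SD, n = 3).

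R5020 lowered ESR1 1.68-fold in siCT cells (log2 -0.75 ± 0.13, adjusted p = 0.00104) and 2.65-fold in siPRMT1 cells (log2 -1.40 ± 0.13, adjusted p = 4.96e-06). siPRMT1 raised it 2.26-fold in ethanol (log2 1.17 ± 0.13, adjusted p = 5.81e-05) and 1.44-fold in R5020 (log2 0.52 ± 0.13, adjusted p = 0.00983). Unlike PGR, ESR1 took a middle value of its group in both libraries of the pair. The ESR1 locus overlaps SYNE1 on the opposite strand, which had 698 counts summed over all 12 libraries. The strand setting of the counting is not given in the sources used here, so reads of overlapping and antisense genes cannot be told apart from those of the receptor genes.

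NR3C1, the receptor for cortisol, had the same order of group means as PGR and ESR1, with smaller differences. Its levels were 11.3, 15.0 and 10.3 CPM in siCT ethanol and 5.41, 7.09 and 8.50 CPM in siCT R5020. In siPRMT1 cells they were 16.8, 16.7 and 16.8 CPM in ethanol and 9.85, 12.3 and 10.4 CPM in R5020. siPRMT1 ethanol lay above every other library and siCT R5020 below every other library. siCT ethanol and siPRMT1 R5020, at 12.2 ± 2.45 and 10.9 ± 1.27 CPM (SD, n = 3), overlapped.

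R5020 lowered NR3C1 1.74-fold in siCT cells (log2 -0.80 ± 0.19, adjusted p = 0.0115) and 1.54-fold in siPRMT1 cells (log2 -0.63 ± 0.18, adjusted p = 0.0354). siPRMT1 raised it 1.55-fold in R5020 (log2 0.63 ± 0.19, adjusted p = 0.0270). In ethanol the difference was 0.45 ± 0.18 on the log2 scale and missed the threshold (adjusted p = 0.0746). NR3C1 counts per library ran from 134 to 626, and its calls were the least stable of the 3 genes that moved. The fall in siPRMT1 cells missed the threshold when any library of siPRMT1 ethanol or siPRMT1 R5020, or siCT R5020 replicate 2, was left out, at adjusted p = 0.0542 to 0.152, though its log2 value stayed between -0.71 and -0.56. The rise in R5020 missed it without siCT R5020 replicate 1 or 2 or siPRMT1 R5020 replicate 2 or 3 (adjusted p = 0.0640 to 0.114). The difference in ethanol passed it without siCT ethanol replicate 2 (log2 0.62, adjusted p = 0.0153) and without siCT R5020 replicate 1 (adjusted p = 0.0445).

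NR3C2, the aldosterone receptor, was the rarest of the 4 and passed the test in no comparison. It stood at 4.14, 4.81 and 3.28 CPM in siCT ethanol and at 2.46, 3.28 and 4.03 CPM in siCT R5020. After siPRMT1 its levels were 3.30, 3.86 and 3.54 CPM for ethanol, then 2.49, 2.15 and 2.90 CPM for R5020. By group mean the order was siCT ethanol, siPRMT1 ethanol, siCT R5020, siPRMT1 R5020, and every group overlapped with its neighbours. The siPRMT1 R5020 libraries lay below all ethanol libraries. The log2 difference with R5020 was -0.33 ± 0.21 in siCT cells (adjusted p = 0.391) and -0.50 ± 0.22 in siPRMT1 cells (adjusted p = 0.157). The difference with siPRMT1 was -0.20 ± 0.21 in ethanol (adjusted p = 0.479) and -0.38 ± 0.22 in R5020 (adjusted p = 0.214), so its sign was opposite to that of the other receptor genes. The 95% interval of the difference in ethanol, from -0.66 to 0.25, does not reach the sizes fitted for PGR and ESR1. NR3C2 had 59 to 163 counts per library. Without the pair that stood apart, the fall with R5020 in siPRMT1 cells (log2 -0.51, adjusted p = 0.0268) and the difference with siPRMT1 in R5020 (log2 -0.52, adjusted p = 0.0308) passed the threshold.

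**Figure D1:**
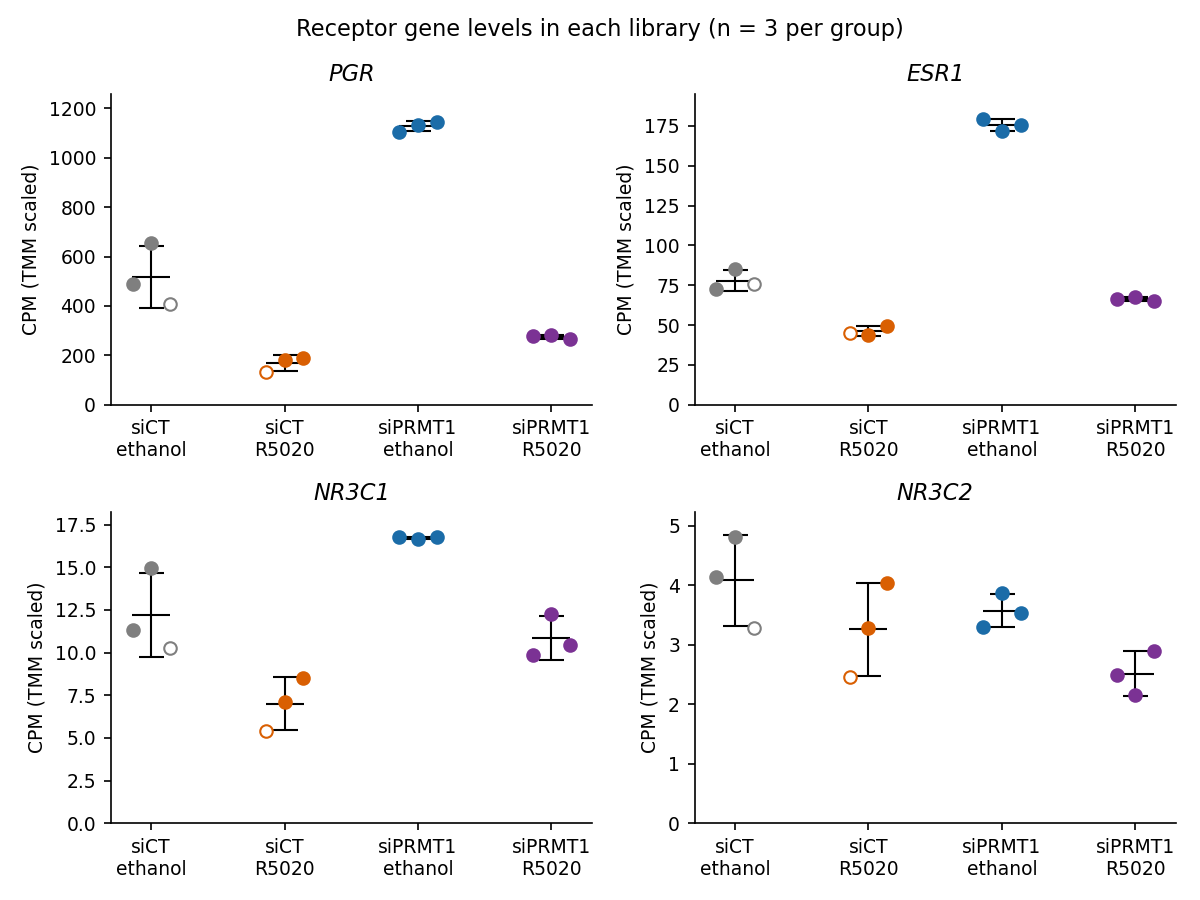
CPM of each receptor gene (vertical axis from 0) in the 3 libraries of each group (points), with the mean and SD (black bars) and, as open points, siCT ethanol replicate 3 and siCT R5020 replicate 1, the pair with a high mitochondrial share. PGR and ESR1 show 4 separate groups with siPRMT1 ethanol on top. For NR3C2 the groups that are neighbours by mean overlap, while siPRMT1 R5020 lies below both ethanol groups.

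Read against the background of all genes, 3 of the 4 receptor genes were called down with R5020 in siCT cells (5.43% of genes tested) and none was called up (7.59%). With R5020 in siPRMT1 cells 3 were down (6.08% of genes) and none up (9.3%). With siPRMT1 in ethanol 2 were up (13.6% of genes) and none down (19.2%), and with siPRMT1 in R5020 3 were up (11.5%) and none down (14.2%). The median log2 change of all genes was -0.04, -0.00361, -0.07 and -0.03 in these comparisons. The comparisons share libraries, so they are not independent of one another. In bulk RNA, fewer cells that express a gene and less of its RNA per cell cannot be told apart.

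**Figure D2:**
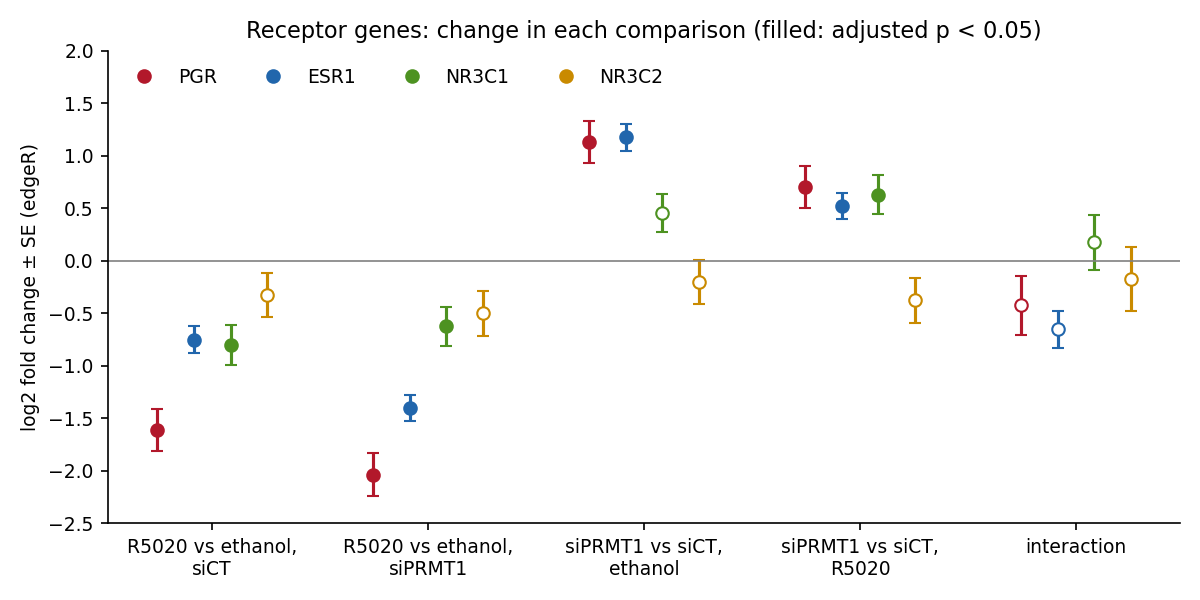
Log2 fold change of each receptor gene (points) with its SE (bars) in the 4 comparisons and the interaction, from edgeR, with filled points at an adjusted p under 0.05. PGR, ESR1 and NR3C1 lie below 0 with R5020 and above 0 with siPRMT1, while NR3C2 lies below 0 with both, its points open.

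The interaction compares the R5020 effect in siPRMT1 cells with that in siCT cells. None of the 4 receptor genes was called by edgeR's quasi-likelihood test, which called 0.079% of all genes. At an unadjusted p under 0.05 edgeR picked out 720 of 17727 genes, with ESR1 alone of the 4 receptor genes among them. That is less than the share of 0.05 that such a cutoff passes where nothing differs. At an adjusted p under 0.05 DESeq2 called 86 genes, also with ESR1 alone of the 4. The ESR1 difference was -0.65 ± 0.18 on the log2 scale, a larger fall in siPRMT1 cells (adjusted p = 0.434). Its adjusted p ran from 0.00206 with DESeq2 to 1.00 over the alternatives, and was 0.0459 without the pair that stood apart. For PGR the difference was -0.43 ± 0.28, for NR3C1 0.18 ± 0.26 and for NR3C2 -0.17 ± 0.30, with 95% intervals of -1.03 to 0.18, -0.39 to 0.74 and -0.83 to 0.48. A larger or smaller response of these 3 genes after siPRMT1 was therefore not resolved. In CPM, the excess of siPRMT1 over siCT cells went from 612 in ethanol to 106 in R5020 for PGR, and from 97.8 to 20.2 for ESR1.

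In the authors' deposited table the log2 changes of PGR were -1.45 and -2.03 with R5020 in siCT and siPRMT1 cells, and those of ESR1 were -0.69 and -1.40. For siPRMT1 in ethanol and in R5020 the authors' deposited table gave 1.12 and 0.69 for PGR and 1.19 and 0.53 for ESR1. For NR3C1 the authors' deposited table put the fall in siCT cells at -0.71 with an adjusted p of 0.104, over the threshold that the test here passed. For NR3C2 the authors' deposited table put the fall in siPRMT1 cells at -0.48 with an adjusted p of 0.0354, under the threshold that the test here missed.

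The coefficient of variation of PGR reached 24.5% in siCT ethanol, 18.2% in siCT R5020, but 1.83% in siPRMT1 ethanol and 3.16% in siPRMT1 R5020. For ESR1 it was 8.41% and 6.25% in the siCT groups and 2.08% and 1.77% in the siPRMT1 groups. Each siCT group holds 1 library of the pair that stood apart, and without it the PGR levels were 488 and 655 CPM in siCT ethanol but 183 and 191 CPM in siCT R5020. One spread was fitted over all groups, and when only the groups compared were fitted, R5020 in siCT cells called PGR alone, with ESR1 at an adjusted p of 0.0742 and NR3C1 at 0.140.

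Ratios of counts between receptor genes within a library do not depend on how libraries are scaled. PGR exceeded ESR1 by 5.38 to 7.69 times in siCT ethanol and by 2.96 to 4.16 times in siCT R5020. After siPRMT1 the ratio was 6.17 to 6.59 in ethanol and 4.07 to 4.19 in R5020. Thus PGR lost more than ESR1 under R5020 with either siRNA, while siPRMT1 libraries in ethanol fell inside the siCT range. The pair that stood apart held the lowest PGR to ESR1 ratio of each siCT group, and the highest ratio of ESR1 to NR3C1.

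ESR1 exceeded NR3C1 by 5.70 to 7.36 times in siCT ethanol, 5.82 to 8.37 in siCT R5020 and 5.50 to 6.73 in siPRMT1 R5020. In siPRMT1 ethanol the ratio was 10.3 to 10.7 and overlapped no other group. PGR exceeded NR3C1 by 65.9 to 68.4 times in siPRMT1 ethanol, against 39.6 to 43.8 in siCT ethanol, 22.4 to 25.8 in siCT R5020 and 23.0 to 28.2 in siPRMT1 R5020. So in untreated siPRMT1 cells both PGR and ESR1 stood high relative to NR3C1, and under R5020 these ratios overlapped between siRNAs. NR3C1 exceeded NR3C2 by 2.74 to 3.13 times in siCT ethanol and 2.109 to 2.197 in siCT R5020. After siPRMT1 it did so by 4.32 to 5.08 times in ethanol and 3.60 to 5.71 in R5020, above both siCT groups. PGR exceeded NR3C2 by 294 to 335 times in siPRMT1 ethanol and by 47.3 to 55.7 times in siCT R5020, the extremes among the groups.

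**Figure D3:**
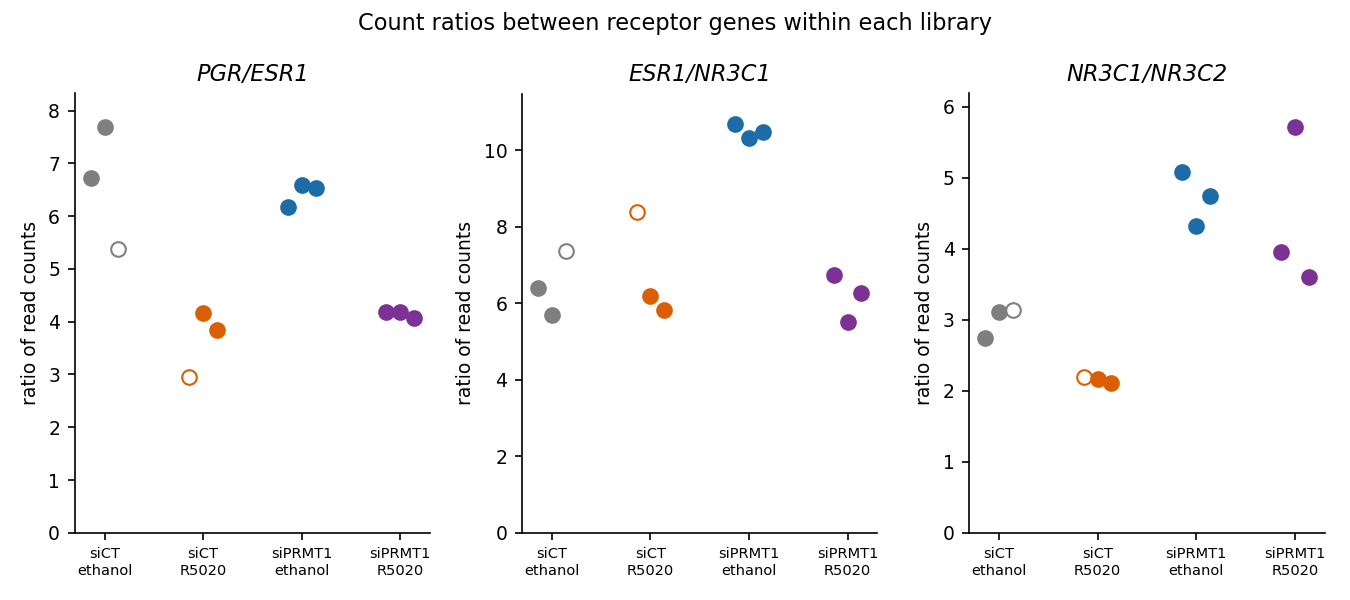
Ratios of raw read counts between 2 receptor genes (vertical axis from 0) in each library (points) by group, with the pair of high mitochondrial share as open points. PGR/ESR1 is lower with R5020 for both siRNAs, ESR1/NR3C1 is highest in siPRMT1 ethanol, and NR3C1/NR3C2 is higher in both siPRMT1 groups.

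Levels between genes were compared per kilobase of exon (GENCODE v29 exons, 15.4 kb for PGR, 13.9 for ESR1, 9.17 for NR3C1 and 6.61 for NR3C2). In siCT ethanol the means were 33.6 ± 8.23 CPM per kb for PGR, 5.62 ± 0.473 for ESR1, 1.33 ± 0.267 for NR3C1 and 0.617 ± 0.116 for NR3C2 (SD, n = 3). The order PGR, ESR1, NR3C1, NR3C2 was the same in all 4 groups. The ranges of NR3C1 and NR3C2 overlapped in siCT R5020, at 0.590 to 0.926 and 0.373 to 0.610 CPM per kb, and in no other group. This overlap was between different libraries. Both lowest values came from replicate 1 and both highest from replicate 3, and in each of these NR3C1 lay above NR3C2. Exon length counts every annotated exon, so a gene whose transcripts use few of them has its level understated.

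The genes most like each receptor gene were found from log2 CPM centred over the 12 libraries, by the root mean square difference among 10099 candidate genes (10100 for NR3C2). FOXP1, a forkhead transcription factor, was most like PGR at 0.177, followed by the kinase TAOK3 at 0.292 and FRMD6 at 0.302, against a median of 1.09 for all candidates. FOXP1 had log2 changes of -1.77 and -1.60 with R5020 in siCT and siPRMT1 cells, and of 0.78 and 0.95 with siPRMT1 in ethanol and R5020. ESR1 was most like the zinc finger gene ZNF485 at 0.171, KIAA1551 at 0.177 and RAPH1 at 0.185. NR3C1 was most like GSTCD at 0.112, TC2N at 0.116 and the transcription factor BACH1 at 0.127. NR3C2 was most like CTBP2, which encodes a corepressor, at 0.139, EIF4BP3 at 0.150 and ZBED6 at 0.155. Among the receptor genes ESR1 and NR3C1 were closest at 0.344, then PGR and ESR1 at 0.407, and PGR and NR3C2 were farthest apart at 0.934. PGR and NR3C1 differed by 0.608, and NR3C1 and NR3C2 by 0.472. The median over all candidates was 0.581 for NR3C1, so PGR was no nearer to NR3C1 than a median candidate. These are descriptions over libraries that share groups, with no test.

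**Figure D4:**
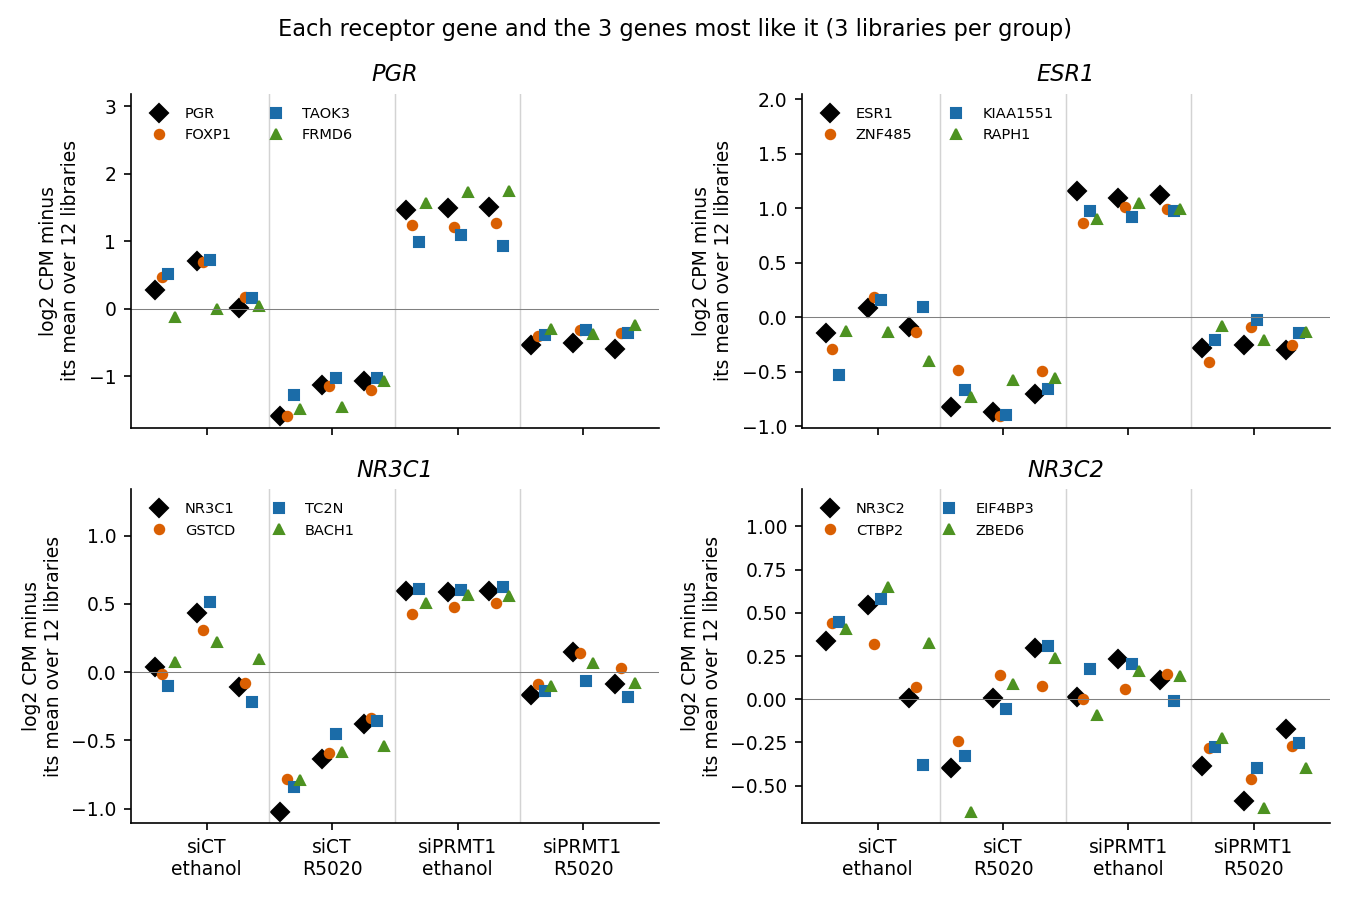
Log2 CPM minus its mean over the 12 libraries (vertical axis) for each receptor gene (diamonds) and the 3 genes most like it, in the 3 libraries of each group. The named genes follow the high siPRMT1 ethanol and low siCT R5020 values of PGR, ESR1 and NR3C1, and NR3C2 with its companions is lowest in siPRMT1 R5020.

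Genes of the receptors' pathway were taken from lists by role. Of 110 counts of called list members, by direction and comparison, 37 moved by over 1.5 times without the pair that stood apart and 31 with library totals alone. Over all genes, R5020 raised 7.59% and lowered 5.43% in siCT cells and raised 9.3% and lowered 6.08% in siPRMT1 cells, while siPRMT1 raised 13.6% and lowered 19.2% in ethanol and raised 11.5% and lowered 14.2% in R5020. Counts of list members stand against these shares, and with lists of 11 to 18 genes a difference of 1 or 2 members is not read as a result. Of the other NR3 receptors, ESR2 and ESRRB had at most 11 counts summed over a group and were not tested. ESRRA, an orphan relative of the estrogen receptors, rose with R5020 in siCT cells, 2.11-fold (adjusted p = 0.00229), and in siPRMT1 cells, 1.66-fold (adjusted p = 0.0217), where the receptor genes fell. Both calls were lost with library totals alone.

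Among 17 chaperones and cochaperones, which keep receptors able to bind ligand, R5020 raised 2 and lowered 0 with either siRNA, against 5 up without the pair, and with library totals alone 1 rose in siCT cells. FKBP5, an HSP90 cochaperone and a known target of these receptors, rose 12.3-fold (adjusted p = 2.42e-07) and 11.3-fold (adjusted p = 2.79e-07), and DNAJB1 rose 2.27-fold and 2.82-fold. Without hormone, siPRMT1 raised HSP90AA1 1.83-fold (adjusted p = 0.00328) and its cochaperone FKBP4 1.69-fold, while the kinase cochaperone CDC37 fell 1.49-fold. These 2 up and 1 down became 6 and 3 without the pair, 1 and 0 with library totals alone and 2 and 0 with a replicate block. In the median the list changed by 0.28, 0.17, 0.31 and 0.13 on the log2 scale in the 4 comparisons.

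R5020 raised 3 of 17 coactivators and lowered 0 in siCT cells, and raised 1 and lowered 1 in siPRMT1 cells, against 6 up and 3 down there without the pair. With library totals alone 1 rose in siCT cells and none was called in siPRMT1 cells. With siPRMT1 in ethanol 5 rose and 1 fell (3 and 0 with library totals alone). PPARGC1B rose 2.05-fold, NCOA3, which encodes the steroid receptor coactivator SRC-3, rose 1.85-fold (adjusted p = 0.00195), and CARM1, another arginine methyltransferase, fell 1.51-fold (adjusted p = 0.0253). Of 13 corepressors none was called with R5020 in siCT cells and TBL1XR1 alone, falling 1.74-fold, in siPRMT1 cells, where 3 rose and 2 fell without the pair and none was called with library totals alone. After siPRMT1 in ethanol 2 rose, NRIP1 1.48-fold (adjusted p = 0.0287) and SIN3A 1.32-fold (adjusted p = 0.0398), and neither was called with library totals alone.

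Pioneer and partner factors included a gene that moved as the receptor genes did under R5020. FOXA1, which opens chromatin at estrogen receptor sites, fell 2.25-fold in siCT cells (adjusted p = 0.000606) and 3.85-fold in siPRMT1 cells (adjusted p = 8.35e-06). In siCT cells 2 of the 12 rose and 1 fell (5 fell without the pair), and in siPRMT1 cells 2 rose and 5 fell. With siPRMT1 in ethanol 5 rose and 1 fell, among them TFAP2C, an AP-2 factor, up 1.89-fold (adjusted p = 0.000331), against 1 up and 0 down with library totals alone. With siPRMT1 in R5020 FOXA1 fell 1.47-fold (adjusted p = 0.0382), opposite in sign to PGR and ESR1.

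Targets of the receptors were counted in 2 lists. Of 16 genes known to be induced through the progesterone, glucocorticoid or mineralocorticoid receptor, 15 rose with R5020 in siCT cells and 15 in siPRMT1 cells, with medians of 2.29 and 2.16 on the log2 scale. The list was chosen with earlier results of these data known, so this count is a description and no test. The kinase gene SGK1 rose 89.6-fold and 53.7-fold, and STAT5A, a partner of the receptor in breast, rose 10.9-fold and 11.2-fold, while PGR and NR3C1 mRNA fell. With siPRMT1 in ethanol 4 of the 16 rose and 4 fell, and in R5020 3 rose and 6 fell, against 4 up and 1 down, and 1 up and 4 down, with library totals alone. Of 18 estrogen receptor targets, PGR among them, R5020 raised 2 and lowered 5 after siCT, and raised 2 and lowered 6 after siPRMT1. The siCT counts became 3 up and 3 down with library totals alone and 1 up and 2 down with a replicate block. Without the pair 5 rose and 6 fell in siCT cells, and 4 rose and 11 fell in siPRMT1 cells. GREB1, a cofactor of the estrogen receptor, rose 5.16-fold and 3.26-fold (adjusted p = 1.28e-06 and 1.49e-05), while SUSD3 fell 1.53-fold and 1.98-fold and BCL2, which restrains apoptosis, fell 3.27-fold and 4.86-fold. With siPRMT1 in ethanol 6 of the 18 rose and 3 fell. SUSD3 rose 2.04-fold beside PGR, whereas IGFBP4 fell 2.35-fold and TFF3 fell 2.48-fold (adjusted p = 0.00126), so the direction of ESR1 was not shared by the whole list, whose median was 0.03.

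Enzymes that set the supply of ligand were counted last, 11 of 17 being tested. With R5020, HSD11B2, which inactivates cortisol and so shields the mineralocorticoid receptor, rose 16.6-fold after siCT and 23.7-fold after siPRMT1 (adjusted p = 1.11e-06 and 3.87e-07). R5020 raised 2 and lowered 0 of them in siCT cells and raised 3 and lowered 1 in siPRMT1 cells, and siPRMT1 in ethanol raised 4 and lowered 2. With library totals alone these became 1 and 1, 2 and 1, and 4 and 1.

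**Figure D5:**
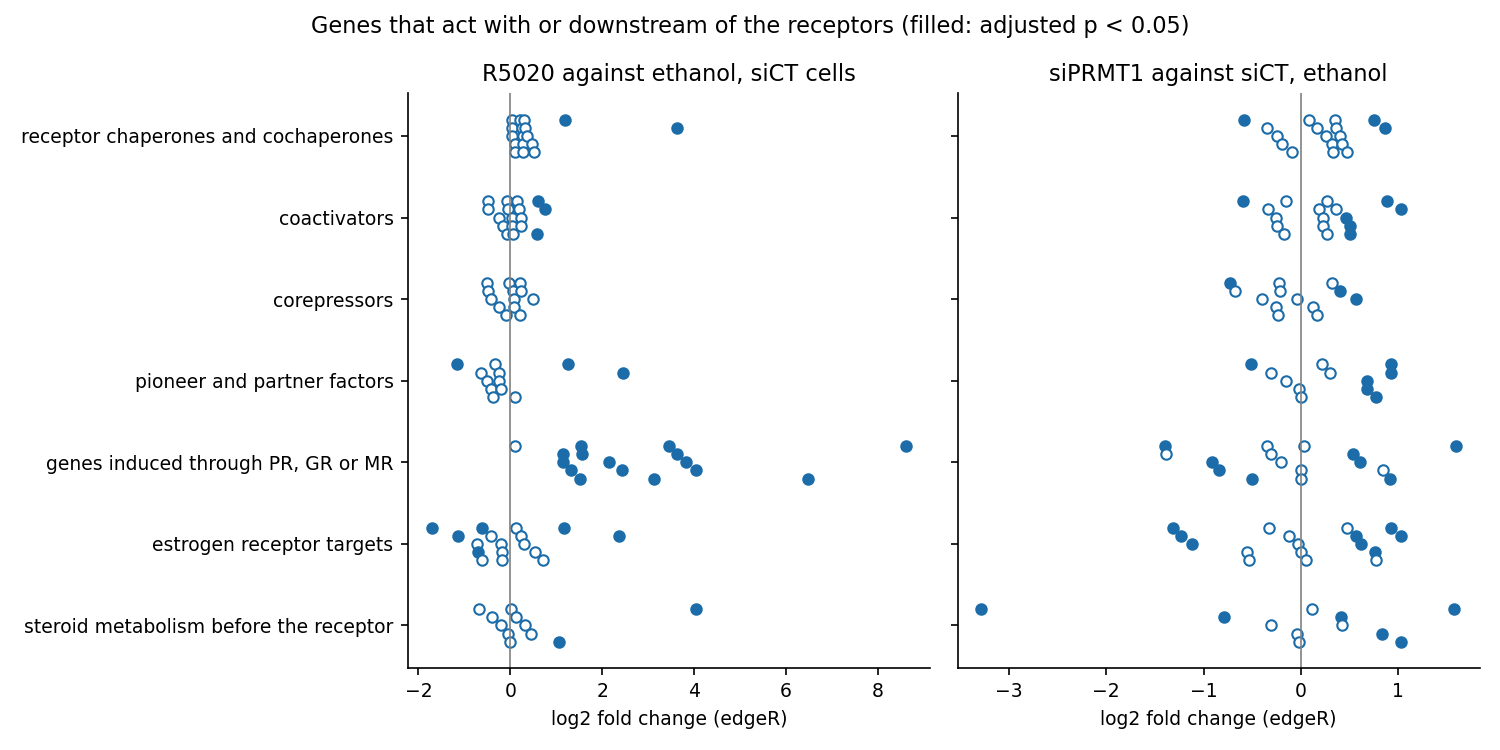
Log2 fold change (horizontal axis) of the tested genes in 7 pathway lists, without the receptor genes themselves, for R5020 in siCT cells (left) and for siPRMT1 in ethanol (right), with filled points at an adjusted p under 0.05. The induced targets, listed with earlier results of these data known, lie to the right with R5020, 15 of 16 filled.

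Of 7 luminal epithelial markers, the keratin genes KRT8 and KRT18 rose with siPRMT1, as PGR and ESR1 did. Summed over the 7 genes the markers stood at 7213 to 9957 CPM in siCT ethanol and 14357 to 14914 CPM in siPRMT1 ethanol, and at 6309 to 7470 CPM in siCT R5020 and 11396 to 12204 CPM in siPRMT1 R5020. KRT18 held the largest part, averaging 2860 CPM in siCT ethanol and 7635 CPM in siPRMT1 ethanol. The sum therefore does not stand for the markers as a class. In ethanol 2 of the 7 rose and 0 fell, KRT18 2.67-fold (adjusted p = 0.00110), and KRT8 2.00-fold (adjusted p = 0.00527), while EPCAM averaged 96.5 CPM with siCT and 75.2 CPM with siPRMT1 (adjusted p = 0.318). In R5020 the same 2 rose and FOXA1 and GATA3 fell. Basal markers summed to 2.35 to 3.81 CPM in siCT ethanol and 2.18 to 2.57 CPM in siPRMT1 ethanol. Stromal, endothelial and leukocyte markers, of which 9 of 10 were in the tables, summed to 35.6 to 86.0 and 35.2 to 37.0 CPM. COL1A1 held most of this last sum, averaging 50.3 CPM in siCT ethanol and 34.5 CPM in siPRMT1 ethanol. The part of these markers in the receptor results was not tested.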

How the data were processed

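Whole-number read counts per gene symbol, not normalized, were deposited for each library. The build hg19, HTSeq 0.9.1, Bowtie2 2.3.2.2 and DESeq2 were used, per the submitters' processing notes. Not given in the sources used here are the annotation, strand setting and DESeq2 version. The authors also deposited a table of log2 fold changes and adjusted p-values, used here for comparison only. Libraries were made with a Lexogen SENSE mRNA kit, per the labels' protocols.

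Counts were filtered with filterByExpr, scaled by TMM and tested in edgeR 4.0.16 (R 4.3.3) with 1 mean per group over all 12 libraries, the quasi-likelihood test and adjustment after Benjamini-Hochberg over 17727 genes. Calls were made at an adjusted p below 0.05. The procedure was tested on simulated data. The alternatives were DESeq2 1.42.0, its size factors, library totals alone, no mitochondrial genes, no filter, limma 3.58.1 voom with quality weights, a replicate block, only the groups compared, and leaving out each library or the pair that stood apart. Block fits of the gene lists were added after seeing the data.

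The receptor genes and gene lists were chosen with earlier results of these data known. Named genes are the receptor genes, PRMT1, for each list in each comparison the called members of smallest adjusted p (4 at most), and the 3 genes with at least 5 CPM on average most like each receptor gene, passing over clone names. A result that this rule covers is not reported here. PTPRC, CD68, CD14, CDH5, COL1A1, COL1A2, COL3A1, PDGFRB, LUM, MALAT1, SYNE1, ESR2 and ESRRB were named after their values were seen. P-values measure the spread between libraries, biological replicates according to the labels.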

Additional observations from a re-analysis of the deposited data

How the results depend on the processing

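The PGR and ESR1 calls held under every alternative for R5020 in siPRMT1 cells and for siPRMT1 in ethanol, and PGR also for R5020 in siCT cells. With library totals alone, receptor genes called were 1 for R5020 in siCT cells (ESR1 at adjusted p = 0.0778, NR3C1 at 0.183) and 0 for siPRMT1 in R5020 (PGR at 0.194, ESR1 at 0.164, NR3C1 at 0.238), and the fall of NR3C1 in siPRMT1 cells was lost (0.171). That scaling moved the median of all genes to -0.18 for R5020 in siPRMT1 cells, 0.11 for siPRMT1 in ethanol and -0.10 for the interaction. With only the groups compared, 1 receptor gene was called for R5020 in siCT cells. For the interaction 1 was called with DESeq2 and 1 without the pair that stood apart. Leaving out 1 library at a time left 1 to 3 receptor genes called for siPRMT1 in R5020. NR3C2 reversed in the interaction without siCT R5020 replicate 3, to 0.00561, the values without 1 library running from -0.33 to 0.00561.

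NR3C2 with R5020 in siPRMT1 cells was called with voom (adjusted p = 0.00653) and with only the groups compared (0.00634), and NR3C2 with siPRMT1 in R5020 with voom (0.0171). NR3C1 with siPRMT1 in ethanol was called with DESeq2 (0.0382). Over all genes, 2308 were called for R5020 in siCT cells, against 3568 without the pair and 898 with only the groups compared. For R5020 in siPRMT1 cells 2725 became 8179 with voom, 5226 without the pair and 7813 with only the groups compared. For siPRMT1 in ethanol 5806 became 3021 with library totals, 3324 with only the groups compared and 3487 to 7827 with 1 library left out. For siPRMT1 in R5020 4559 became 2429 with library totals, 9866 with voom, 6992 without the pair and 2332 to 6768 with 1 library left out. For the interaction 14 became 86 with DESeq2, 3 with library totals, 29 without the filter, 65 with voom, 140 without the pair and 0 to 32 with 1 library left out. The causes were not tested.

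Same-numbered libraries deviated together (r over 0.1) in 3 of 18 pairs, with r from -0.67 to 0.290. The lowest r were those of siCT ethanol against siCT R5020 for number 3 (-0.667) and number 1 (-0.533). Each of these holds 1 of the libraries that stood apart, so such values cannot tell whether same-numbered libraries share a culture or day. A replicate block changed no call of a receptor gene, and the interaction went from 14 genes to 0. Counts per library were lowest for NR3C2, 59 to 163.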
